A study of Mus musculus with 16 samples.

Results

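The glucocorticoid receptor gene Nr3c1 and 9 genes tied to its activity were followed in cultured mouse brain endothelial cells with and without Ccm3, either untreated or exposed to propranolol or rapamycin. The 10 genes were chosen by name from knowledge of the pathway, and their reads were summed over all transcripts of each gene. They are 10 of the 54193 genes that could be summed from the deposited transcript counts. Besides Nr3c1, they were Fkbp5 and Fkbp4, which encode co-chaperones of the receptor, and Tsc22d3, Sgk1, Per1, Klf9, Zbtb16, Mt1 and Mt2, which glucocorticoids induce in many tissues. Of the 10 genes, 9 passed the filter on low counts, and Zbtb16 did not.

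All mBMEC (mouse brain microvascular endothelial cells) came from adult Cdh5(PAC)-CreERT2/Pdcd10 fl/fl mice, 8 to 10 weeks old and on a C57BL/6J background. Each culture pooled 3 to 4 brains, was selected with puromycin and was used at passage 2. Both genotypes therefore carry the floxed Ccm3 (Pdcd10) alleles and a tamoxifen-inducible Cre under the Cdh5 promoter. KO cells had received 4-hydroxytamoxifen (4-OHT) and WT cells had not, so the deletion and the exposure to 4-OHT cannot be told apart. There were 3 WT and 3 KO libraries from untreated cells, 2 WT+P and 3 KO+P libraries from cells given 10 µM propranolol, a beta-adrenergic blocker, and 2 WT+R and 3 KO+R libraries from cells given 100 nM rapamycin, an inhibitor of mTOR, each for 24 h. The culture medium held 15% fetal bovine serum, and its stated composition names no glucocorticoid. No group is described as given a glucocorticoid, and no steroid level was analysed here.

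The glucocorticoid receptor waits in the cytoplasm in a complex with HSP90 and immunophilins. Fkbp5 encodes an immunophilin that keeps the affinity of the receptor for hormone low and is itself a target gene, which closes a feedback loop, whereas the product of Fkbp4 links the complex to dynein and favours transport to the nucleus. Hormone-bound receptor enters the nucleus and binds response elements built from a pair of inverted short motifs. In brain endothelium glucocorticoids are best known for tightening the barrier and damping inflammation. The target genes also answer to other inputs, since FOXO factors act on Tsc22d3, the clock and cAMP act on Per1, and zinc acts on Mt1 and Mt2 through MTF1.

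The 1 member with a full consensus response element in the windows searched was Sgk1 (ENSMUSG00000019970.17, GRCm39 chr10:21758083-21875802, plus strand). The full consensus glucocorticoid response element, a palindrome searched on both strands, was found in 0 of 13113 windows of 300 bases before the start of the most abundant transcript of protein-coding genes that were tested or belong to the set. In windows of 2000 bases it was found in 4 of 13109, or 0.0305%, and Sgk1 was among these. Its match at chr10:21869600-21869614 begins 965 bases before the start of the main transcript Sgk1-201 and 189 bases before that of Sgk1-202. The 300 bases before Sgk1-202, chr10:21869489-21869788 on the plus strand, hold 0 bases annotated as exon of Sgk1 and are shown because they carry this element, set in capitals.
Sgk1-202 upstream: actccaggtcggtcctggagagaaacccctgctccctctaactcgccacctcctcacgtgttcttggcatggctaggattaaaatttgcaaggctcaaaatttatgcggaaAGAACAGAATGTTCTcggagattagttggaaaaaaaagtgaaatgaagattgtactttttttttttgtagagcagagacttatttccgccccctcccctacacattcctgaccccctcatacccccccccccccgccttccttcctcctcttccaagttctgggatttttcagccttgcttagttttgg

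The single arm AGAACA, searched on both strands, was found in 14.9% of the windows of 300 bases and in 0 of the 10 genes. The core of the metal response element, the site of the zinc-sensing factor MTF1, was searched as TGCACNC or TGCGCNC on both strands, matches that overlap counted apart, and was found in 29.2% of all windows, with at least 2 matches in 7.69%. The E-box CACGTG of clock factors, found in 8.12% of windows, was present once each before Fkbp5 and Per1, and the cAMP response element TGACGTCA, found in 1.88%, before none of the 10. Mt1 (ENSMUSG00000031765.10, chr8:94905710-94906955, plus strand) had 1 metal element match, as did Sgk1, and Mt2 (ENSMUSG00000031762.9, chr8:94898819-94900207, plus strand) had 2. These matches are shown in capitals with their flanks, since Mt1 and Mt2 varied most between libraries. They lie at chr8:94905694-94905700 for Mt1 and at chr8:94899023-94899029 and chr8:94899118-94899124 for Mt2. Both Mt2 matches lie before the start of its main transcript Mt2-201 (chr8:94899132) but within the annotated span of the gene. Whether they fall in an exon of another Mt2 transcript is not given here. A match is a description of letters in the window, and absence of one says only that the letters are not there.
Mt1, 16 bases before the start: gggcggtcccgctgTGCACACtggcgctcc
Mt2, 109 bases before the start: agcatcgcctcTGCACCCggcccctcgggc
Mt2, 14 bases before the start: cggatcgcagacccttTGCGCTCagctcct

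The total per library lay between 18830503 and 26203339 counts. Pdcd10 was read first as a check of the deletion: it lay between 7.83 and 16.7 CPM (counts relative to library size, scaled with TMM factors) in the 9 KO libraries and between 27.7 and 60.8 CPM in 6 of the 7 WT libraries. The library labelled WT replicate 1 had 11.5 CPM, within the KO range, so the main values that use it are also given without it. All 8 endothelial markers were above 1 CPM in every library, and their summed level ranged from 6200 to 13000 CPM. Of the mural markers, Kcnj8 and Abcc9 stayed under 1 CPM in all 16 libraries and the summed level without Acta2 was between 2.21 and 14.6 CPM. Fibroblast markers summed to between 2.64 and 186 CPM. Microglial markers all stayed under 1 CPM, and of the astrocyte, oligodendrocyte and neuron lists 4 of 5, 4 of 5 and 3 of 4 did. In bulk RNA, fewer cells of a type and less RNA per cell cannot be told apart. Replicate numbers came from the labels, and libraries that share one tended to deviate together, least so for WT replicate 3. Ratios between libraries of the same number are therefore given beside the fitted changes. The 7 pairs of KO with WT and the 5 pairs for each drug come from only 3 numbers, so they are not independent. That common deviation was read from the values, since no label states it.

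On a scale per transcript length (TPM), the metallothioneins Mt1 and Mt2 and the kinase gene Sgk1 stood at the top of the set, with mean levels over the 16 libraries of 179, 117 and 107 TPM. Fkbp4 followed at 51.2 TPM and Tsc22d3 at 29.5 TPM, and Nr3c1 and Klf9 had nearly the same mean, 18.4 and 18.2 TPM. Per1 at 11.8 TPM and Fkbp5 at 5.14 TPM were the lowest of the expressed genes. The spread over libraries differed as much as the level. Nr3c1 ranged over 2.11 times from its lowest to its highest library, Fkbp4 over 2.53 times, Sgk1 over 6.8 times and Mt2 over 23.3 times.

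**Figure D1:**
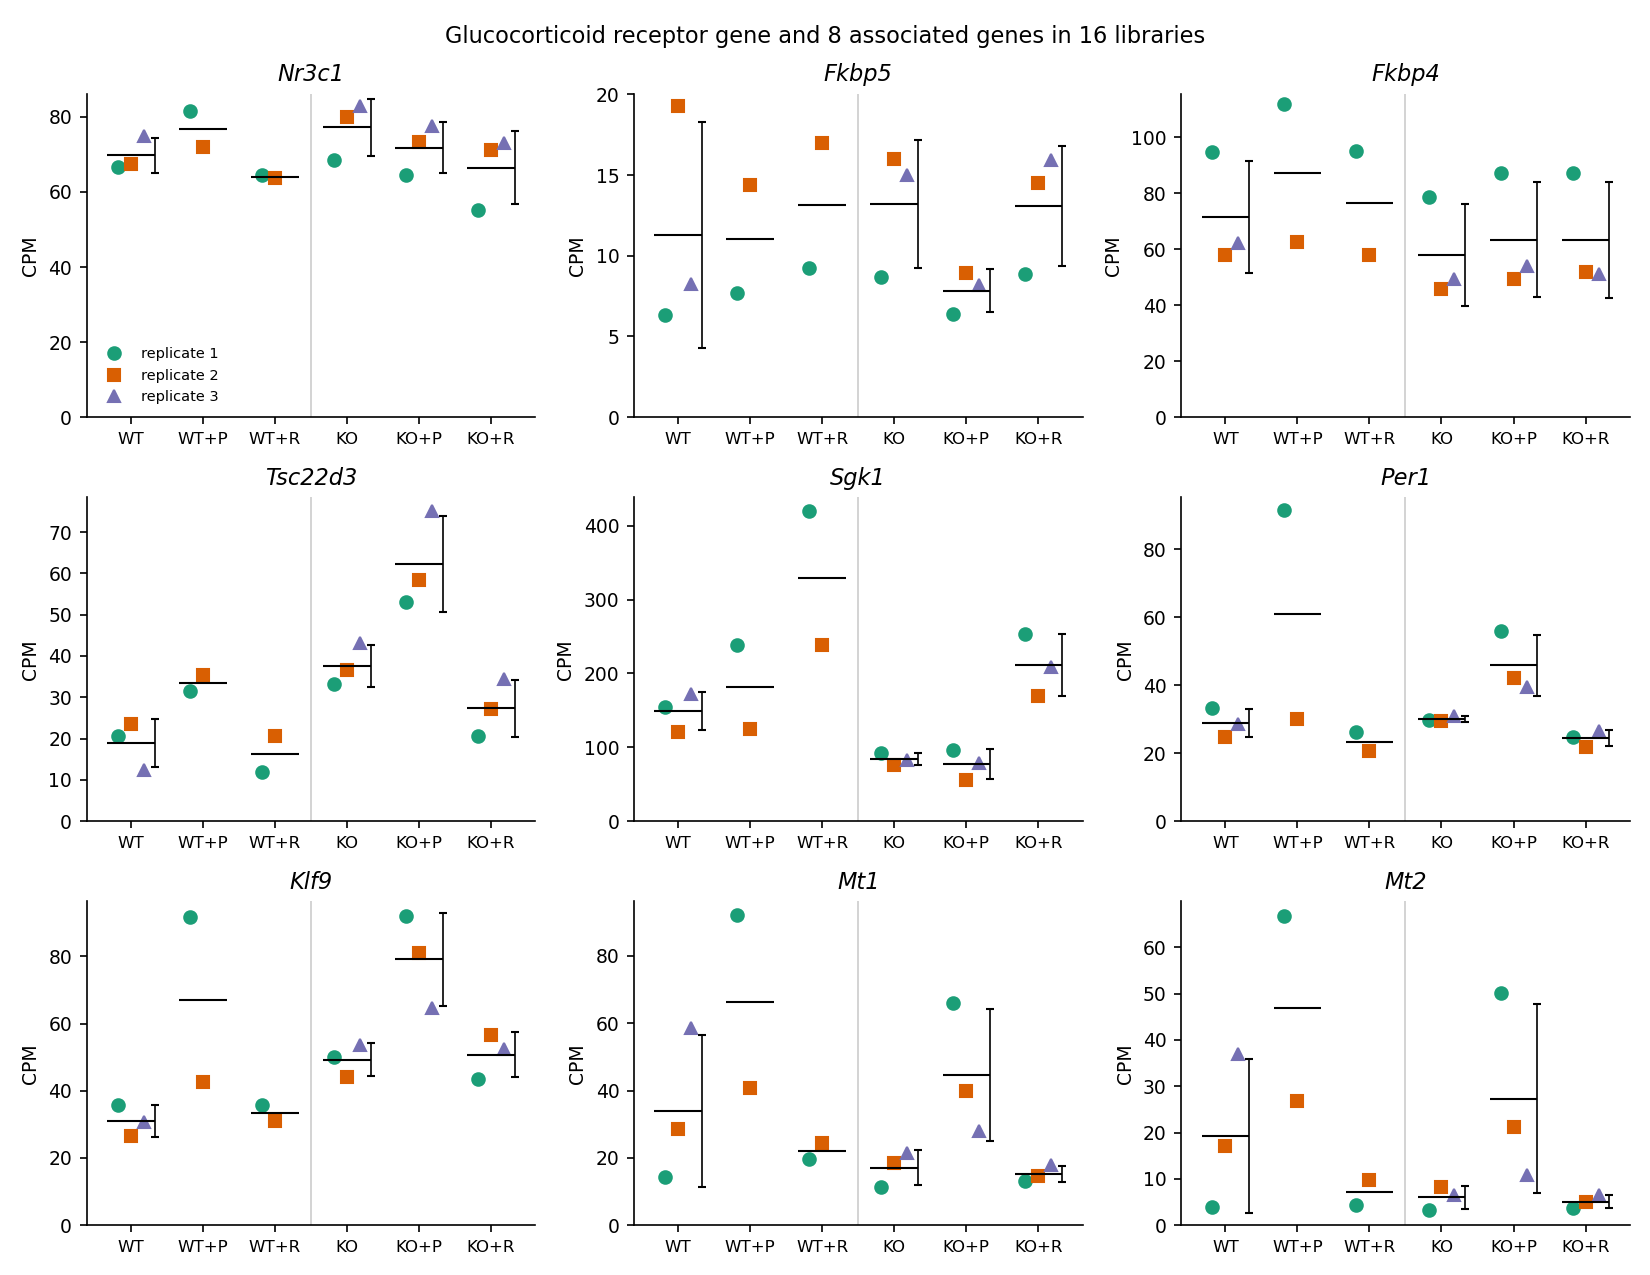
Levels in CPM (vertical axes, each from 0) of Nr3c1 and 8 associated genes in the 6 groups; each point is a library, its colour and shape give the replicate number, the horizontal line is the group mean and the bar is 1 SD, drawn for the groups of 3. Sgk1 is highest in the rapamycin groups (WT+R 239 and 420 CPM), Tsc22d3 in KO+P (53 to 75.2 CPM), and Fkbp4 has replicate 1 on top in all 6 groups.

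The receptor itself varied little. Nr3c1 (ENSMUSG00000024431.17, chr18:39543598-39652474, minus strand) had 66.7, 67.5 and 75 CPM in the WT libraries and 68.6, 79.9 and 83 CPM in the KO libraries, which overlap. Its group means ran from KO (77.2 ± 7.61 CPM, SD, n = 3) over WT+P, KO+P, WT and KO+R to WT+R (64.1 ± 0.514 CPM, n = 2), and every pair of neighbours in that order overlapped. The fitted log2 fold changes of Nr3c1 lay between -0.21 and 0.15 with standard errors of 0.12 to 0.14, and none was called (edgeR, smallest adjusted p = 0.526, in KO+R vs KO). In the 5 pairs of libraries with the same number, rapamycin-treated cells had less Nr3c1 mRNA each time, by log2 ratios of -0.31 to -0.05, a direction that 22.9% of all tested genes showed in all 5 pairs. An opposite-strand gene covers 14.8% of the exonic sequence of Nr3c1, and the unstranded libraries cannot separate the reads of both.

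Most Nr3c1 signal was assigned to a pair of protein-coding transcripts with different starts. The more abundant took 82.5% of the TPM of the gene on average and the other 11.3%, with a range of 1.7 to 28.6% over the libraries. The share of the minor transcript spanned 2 to 25.7% within WT and 1.7 to 24.7% within KO, which overlap.

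For the co-chaperone genes, the replicate number accounted for more of the variance than the group did. Fkbp4 (chr6:128406698-128415665, minus strand) had 94.6, 57.9 and 62.2 CPM in WT and 78.8, 45.7 and 49.2 CPM in KO, each time with replicate 1 far above the others. Replicate 1 had the highest Fkbp4 level in all 6 groups, as did 8.3% of all tested genes, and the replicate number accounted for 86.1% of the variance of its log2 level against a median of 23.4% over tested genes. Fkbp5 (chr17:28618058-28737521, minus strand) went the other way, with 6.35, 19.3 and 8.24 CPM in WT and 8.68, 16 and 15 CPM in KO. Replicate 1 had the lowest Fkbp5 level in all 6 groups, as did 9.77% of all tested genes, and the replicate number took 57.5% of the variance. Across the 16 libraries the log2 levels of the pair had a Pearson r of -0.68 and a Spearman rho of -0.61, which describes libraries that share treatments and replicate numbers.

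**Figure D2:**
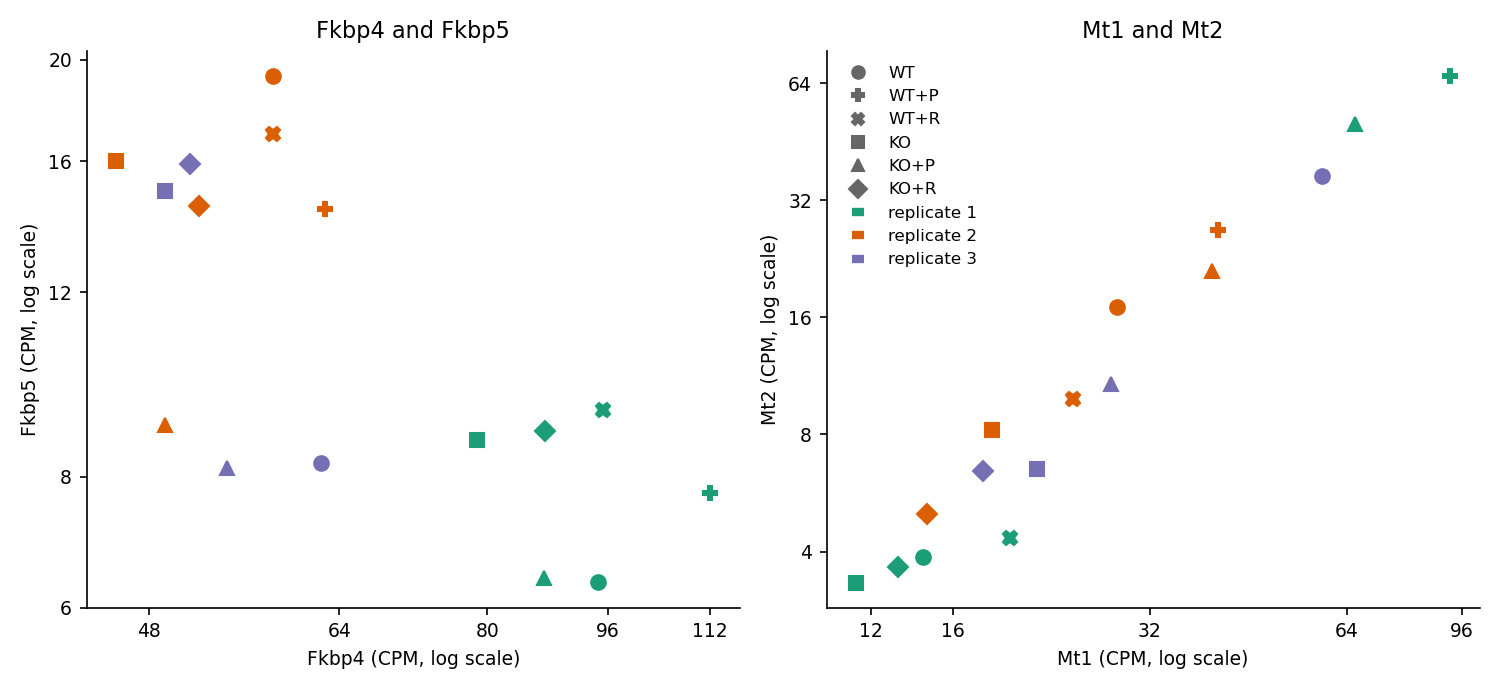
Each point is 1 of the 16 libraries, with CPM on log axes, shape for the group and colour for the replicate number; left Fkbp4 (horizontal) against Fkbp5 (vertical), right Mt1 against Mt2. Replicate 1 sits at the lower right for Fkbp4 and Fkbp5 in every group, and the metallothioneins lie along a line (r = 0.98).

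Between libraries of the same number, Fkbp4 showed small shifts of constant direction. KO libraries had less Fkbp4 than WT libraries of the same number and treatment in 7 of 7 pairs, by log2 ratios of -0.36 to -0.12, and propranolol-treated libraries had more in 5 of 5 pairs, by 0.11 to 0.24. Among all tested genes, 7.62% were lower in KO in all 7 pairs and 14.6% were higher with propranolol in all 5. Without the library labelled WT replicate 1 the fitted change of Fkbp4 in KO vs WT went from -0.31 to -0.06 in the fit without the replicate block. With the replicate block it was -0.32 with all libraries and -0.35 without that library. Neither shift was called with the replicate block (KO vs WT, adjusted p = 0.0682) or without it (0.996). Fkbp5 had 6.41, 8.96 and 8.16 CPM in KO+P, below its own KO library in all 3 pairs by -0.87 to -0.43. The fitted change in KO+P vs KO was -0.75 ± 0.42 (log2 ± SE), and it was not called (adjusted p = 0.467). In WT cells the 2 propranolol pairs of Fkbp5 went in opposite directions, 0.28 and -0.43.

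Sgk1, which encodes a kinase of ion transport and survival signalling that is phosphorylated downstream of mTORC2, was the member with the clearest response. It had 92.7, 76.4 and 82.5 CPM in the KO libraries and 254, 170 and 209 CPM in the KO+R libraries, with no overlap. Sgk1 rose 2.51-fold in KO+R vs KO (log2 1.33 ± 0.28, edgeR adjusted p = 0.0345), and it was the only gene of the set called in any comparison of the main fit. With the replicate block the adjusted p was 0.000459. Without any of the 6 libraries in turn and without the block, the log2 change stayed between 1.2 and 1.49 and the adjusted p lay between 0.0594 and 0.144, so the call rested on all 6. In this comparison 1.51% of the 14838 tested genes were called, 0.708% as higher.

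Rapamycin gave a change of similar size in WT cells. Sgk1 had 155, 121 and 172 CPM in WT and 420 and 239 CPM in WT+R, which did not overlap. The fitted change was 1.15 ± 0.31 on the log2 scale, or 2.21-fold, with an adjusted p of 0.0863 without the block and 0.00207 with it. It was 0.68 without WT+R replicate 1, 1.49 without WT+R replicate 2 and 1.17 (adjusted p = 0.182) without the library labelled WT replicate 1. Over both genotypes, Sgk1 was higher with rapamycin in 5 of 5 pairs of the same number, by log2 ratios of 0.99 to 1.45, and 18.5% of tested genes were higher in all 5. The difference between the rapamycin effects in KO and WT cells was 0.18 ± 0.42 (interaction, adjusted p = 1.0), so a difference was not detectable here. The comparisons of rapamycin with untreated cells and of KO with WT share their untreated libraries, so their values are not independent.

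Sgk1 was also lower in KO than in WT cells under each treatment. Every KO library (76.4 to 92.7 CPM) lay below every WT library, and the KO+P libraries, with 96, 56.3 and 79.4 CPM, lay below the WT+P libraries, with 238 and 125 CPM. With rapamycin the KO+R and WT+R libraries overlapped. In KO vs WT the fitted log2 change was -0.83 ± 0.28, with an adjusted p of 0.595 without the block and 0.0465 with it. Without the library labelled WT replicate 1, the value was -0.81 without the block. With the block and without that library, the log2 fold change of Sgk1, KO vs WT, was -0.95 (adjusted p = 0.0207). In KO+P vs WT+P the change was -1.23 ± 0.31, with an adjusted p of 0.432 without the block and 0.0146 with it, and in KO+R vs WT+R it was -0.64 ± 0.31, with 0.898 and 0.108. These values were -0.69 without WT+P replicate 1 and -0.18 without WT+R replicate 1. All 7 pairs of the same number and treatment were lower in KO, by -1.31 to -0.49. KO+R libraries (170 to 254 CPM) overlapped those of untreated WT cells (121 to 172 CPM) at 1 library. With propranolol the changes were -0.12 ± 0.28 in KO+P vs KO and 0.29 ± 0.31 in WT+P vs WT, and neither was called.

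Sgk1-201 carried 78.1% of the TPM of the gene and Sgk1-202, whose start lies nearest to the response element shown above, carried 17.5%. The share of Sgk1-202 was 12.6 to 16.4% in KO+R and 18.7 to 19.2% in KO, while its level was 10.5 to 11.4 TPM in KO and 14.7 to 22.9 TPM in KO+R. Between KO and KO+R both the share and the level were without overlap. In WT cells the share overlapped, with 14.3 to 18.2% in WT and 14.3 to 14.4% in WT+R. The level there did not, with 11.8 to 22.1 TPM in WT and 23.0 to 38.1 TPM in WT+R. Neither the share nor the level was tested. Opposite-strand genes cover 14.4% of the exonic sequence of Sgk1. The smooth muscle gene Acta2 was likewise highest in WT+R and higher in KO+R than in KO, with 32.5 to 170 CPM in WT, 557 to 618 CPM in WT+R, 22 to 44.4 CPM in KO and 60.2 to 161 CPM in KO+R. The other 6 mural markers summed to at most 14.6 CPM in any library, and the part of such cells in the Sgk1 values was not tested. Summed endothelial markers were at 8650 to 9510 CPM in WT+R against 10000 to 13000 CPM in WT, without overlap. Between KO+R (9730 to 10900 CPM) and KO (10600 to 11500 CPM) they overlapped, and their part in the Sgk1 values was not tested.

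**Figure D3:**
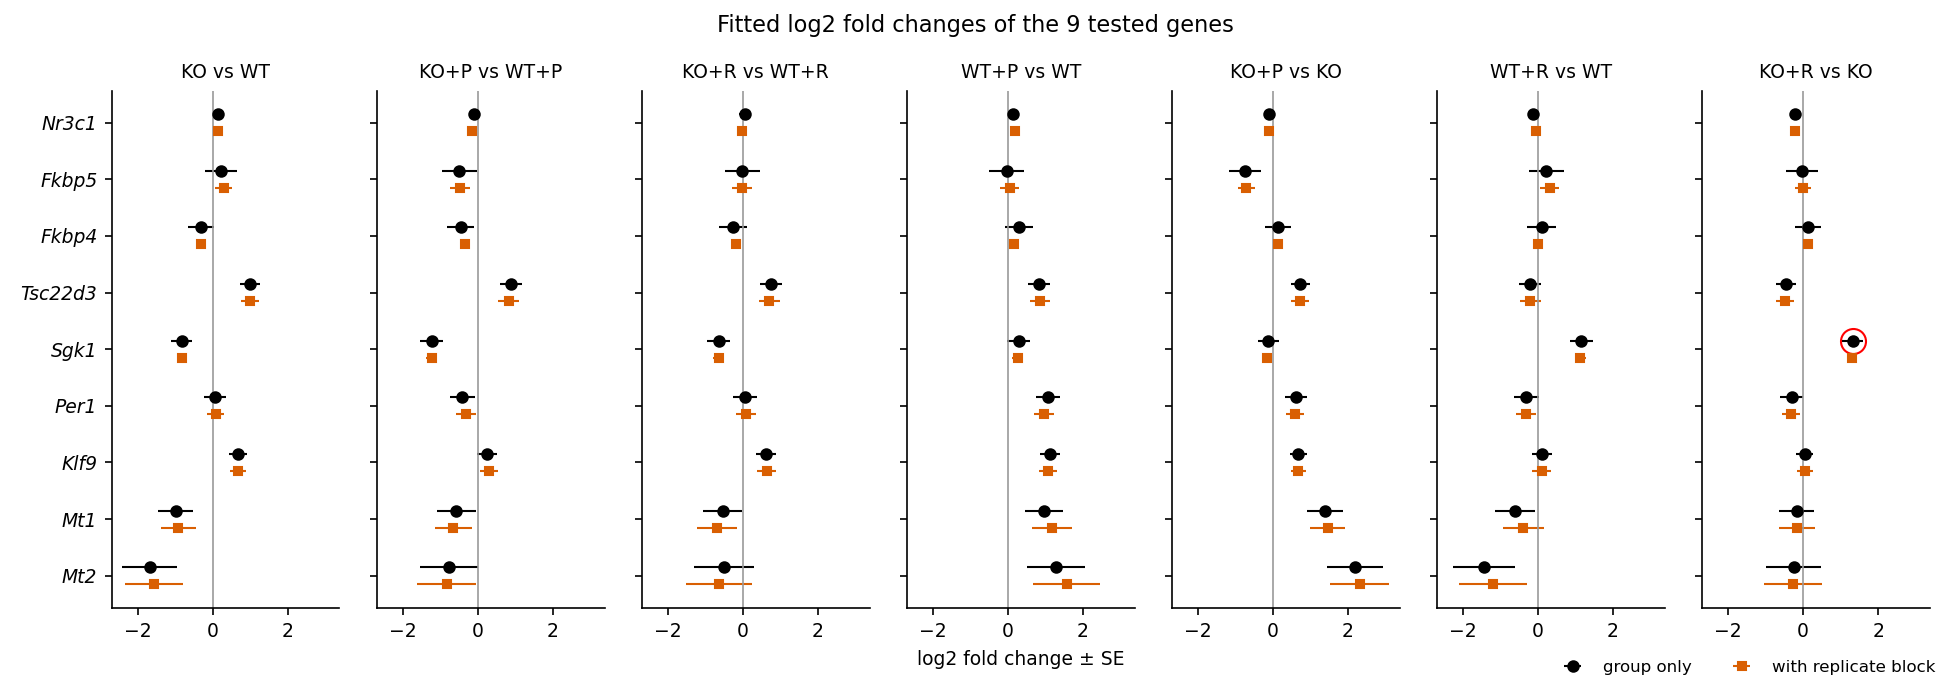
Fitted log2 fold changes (horizontal axes, shared scale) with 1 SE for the 9 tested genes in the 7 comparisons of groups; circles are the fit on groups alone, squares the fit with the replicate number as a block, and the red ring marks a call at adjusted p under 0.05 and a fold above 1.5. Only Sgk1 in KO+R vs KO (1.33) is ringed; Sgk1 is left of 0 in the 3 KO against WT panels and right of 0 in both rapamycin panels.

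Tsc22d3, which encodes the anti-inflammatory leucine zipper protein GILZ, followed an order unlike that of Sgk1. It had 20.6, 23.6 and 12.4 CPM in WT and 33.1, 36.5 and 43.2 CPM in KO, with no overlap. With propranolol it had 31.6 and 35.3 CPM in WT+P and 53, 58.4 and 75.2 CPM in KO+P, above the untreated libraries of the same genotype in each case. With rapamycin it had 11.9 and 20.7 CPM in WT+R and 20.5, 27.2 and 34.3 CPM in KO+R. The KO+P libraries stood above all 13 others, and no other neighbours in the order of group means were separated.

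By pairs of the same number, Tsc22d3 was higher in KO in 7 of 7 (log2 ratio 0.39 to 1.79), higher with propranolol in 5 of 5 (0.58 to 0.8) and lower with rapamycin in 5 of 5 (-0.79 to -0.19). The corresponding shares of all tested genes were 6.98, 14.6 and 22.9%. The ratio of 1.79 was that of the untreated replicate 3 libraries, and the other KO ratios reached at most 0.78. The fitted change was 1.0 ± 0.27 in KO vs WT (adjusted p = 0.455), 0.83 ± 0.29 in WT+P vs WT (0.449) and 0.73 ± 0.26 in KO+P vs KO (0.334), and none was called with or without the block. Without the library labelled WT replicate 1, the values of Tsc22d3 were 1.06 in KO vs WT and 0.89 in WT+P vs WT. Tsc22d3-201 (chrX:139440091-139443936, minus strand), a coding transcript, took 87.8 to 94.2% of the TPM of the gene in KO+P and 57.5 to 79.4% in WT. Tsc22d3-202, for which no coding sequence is annotated, took most of the rest, with 3.5 to 11.1% in KO+P, 18.6 to 42.5% in WT and 13.3 to 60.6% in WT+R.

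Klf9, a transcriptional repressor that feeds glucocorticoid and thyroid signals into growth control, shared part of that pattern. It had 35.8, 26.4 and 30.6 CPM in WT and 50.2, 44.1 and 53.6 CPM in KO, with no overlap, and 92.1, 80.9 and 64.6 CPM in KO+P, above all KO libraries. Its WT+P libraries, with 91.7 and 42.5 CPM, both lay above the WT libraries but differed from each other by more than the whole WT range. The fitted changes were 1.12 ± 0.26 in WT+P vs WT (adjusted p = 0.267), 0.68 ± 0.23 in KO+P vs KO (0.326) and 0.67 ± 0.24 in KO vs WT (0.615), and none was called with or without the block. The WT+P value of Klf9 was 0.46 without WT+P replicate 1 and 1.57 (adjusted p = 0.0109) without WT+P replicate 2, with the lone treated library assumed to vary like the other groups. Without the library labelled WT replicate 1 it was 1.23, and the KO vs WT value was 0.78. Rapamycin left Klf9 close to the untreated level, with changes of 0.11 ± 0.26 in WT and 0.04 ± 0.23 in KO cells. In pairs of the same number Klf9 was higher in KO in 7 of 7, though in 1 pair by only 0.01.

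Per1, a repressor of the circadian clock that glucocorticoids also induce acutely, had like levels in untreated cells of both genotypes, with 33.3, 24.9 and 28.5 CPM in WT and 29.9, 29.4 and 30.9 CPM in KO. In KO+P it had 56, 42.1 and 39.4 CPM, above all KO libraries, and in WT+P it had 91.7 and 30.2 CPM, the second of which lay within the WT range. KO+R libraries, with 24.8, 21.9 and 26.6 CPM, lay below all KO libraries. The changes were 1.08 ± 0.32 in WT+P vs WT (adjusted p = 0.373), 0.61 ± 0.29 in KO+P vs KO (0.411) and -0.3 ± 0.3 in KO+R vs KO (0.779). The WT value rested on the first library, since without WT+P replicate 1 it was 0.06, whereas without WT+P replicate 2 it was 1.67 (adjusted p = 0.0109), where the lone treated library is assumed to vary like the other groups. Without the library labelled WT replicate 1 it was 1.18.

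The metallothioneins Mt1 and Mt2, small proteins that bind zinc and other metals, had the widest spread. Mt1 had 14.4, 28.5 and 58.6 CPM in WT, 11.4, 18.4 and 21.5 CPM in KO, 92.1 and 40.7 CPM in WT+P and 66, 39.9 and 27.9 CPM in KO+P. Mt2 had 3.87, 17 and 36.9 CPM in WT, 3.33, 8.2 and 6.53 CPM in KO, 66.7 and 26.9 CPM in WT+P and 50.1, 21.1 and 10.8 CPM in KO+P. For both genes the KO+P libraries lay above the KO libraries, while WT and WT+P overlapped. With rapamycin Mt1 stayed between 13.2 and 24.4 CPM and Mt2 between 3.65 and 9.84 CPM over the 5 libraries.

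In KO+P vs KO the fitted change was 1.39 ± 0.47 for Mt1, or 2.61-fold, and 2.18 ± 0.74 for Mt2, or 4.54-fold, and neither was called (adjusted p = 0.325 for both). Without KO+P replicate 1 the values were 0.99 for Mt1 and 1.41 for Mt2. In WT+P vs WT they were 0.97 for Mt1 and 1.28 for Mt2, and 0.6 and 0.79 without the library labelled WT replicate 1. Propranolol-treated libraries were higher in 5 of 5 pairs for both genes, and the size differed by replicate number: the replicate 1 pairs had log2 ratios of 2.67 and 2.53 for Mt1 and 4.08 and 3.88 for Mt2, whereas the other 3 pairs lay between 0.37 and 1.12 for Mt1 and between 0.66 and 1.35 for Mt2. KO libraries were lower in 7 of 7 pairs for both genes, by -1.44 to -0.03 for Mt1 and -2.48 to -0.21 for Mt2. The ratios of -1.44 and -2.48 were those of the untreated replicate 3 libraries. The KO vs WT values moved when single libraries were left out, between -1.36 and -0.33 for Mt1 and between -2.17 and -0.8 for Mt2, and none passed the test. The most negative of these values were those without the library labelled WT replicate 1. The log2 levels of Mt1 and Mt2 had a Pearson r of 0.98 and a Spearman rho of 0.98 over the 16 libraries. Of the exonic bases of Mt2, 82.4% overlap Gm45774 on the other strand, so its reads cannot be assigned with certainty, while Mt1 has no such overlap.

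**Figure D4:**
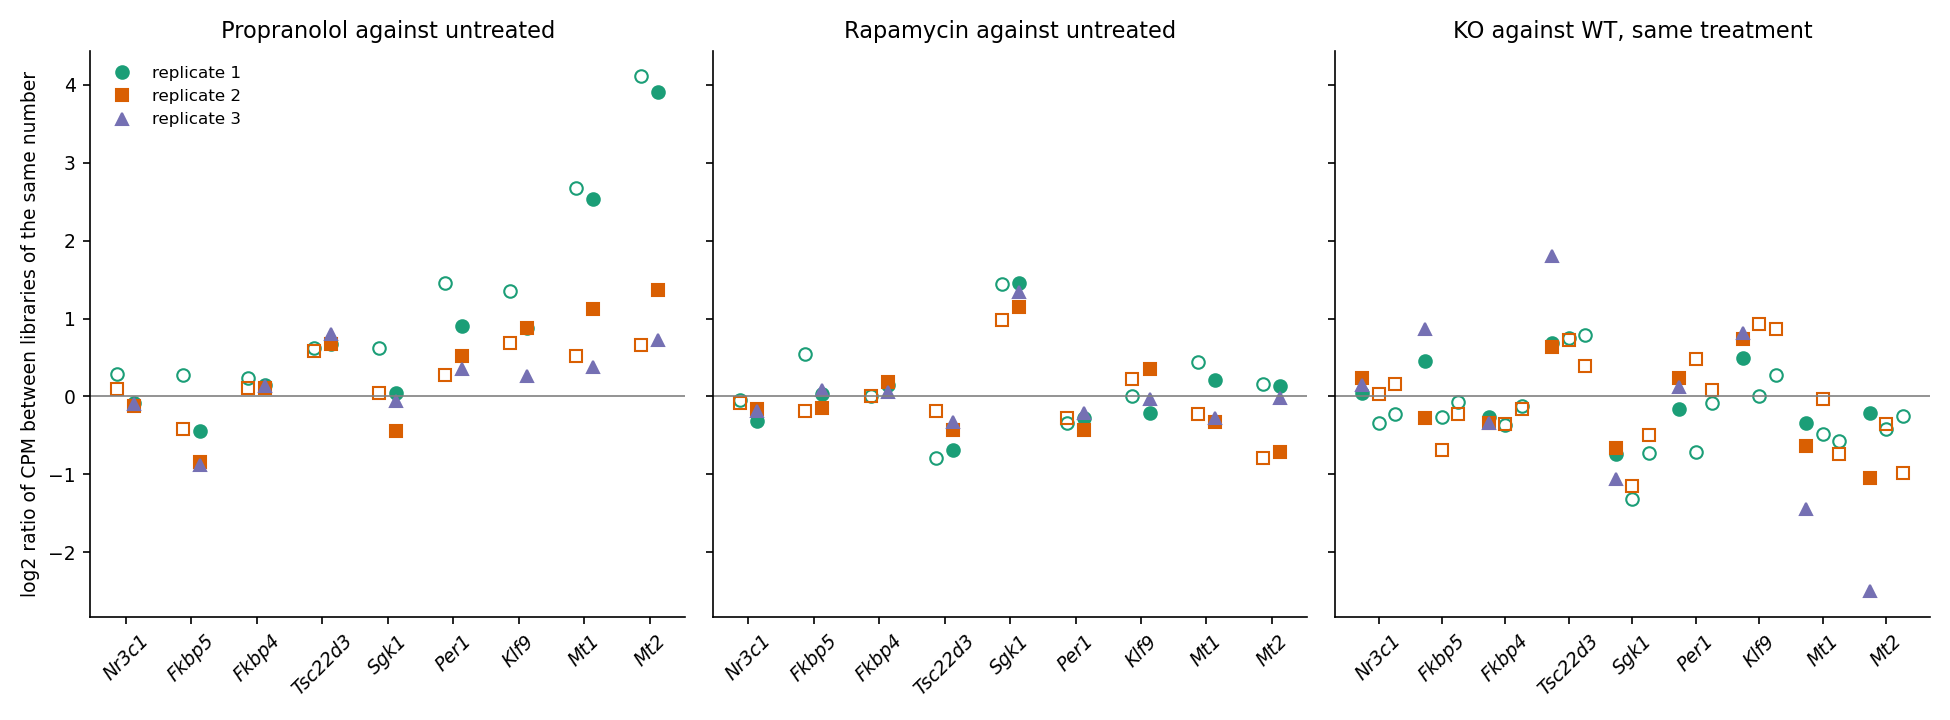
log2 ratios of CPM between libraries with the same replicate number (vertical axis); colour and shape give the number. Filled symbols are KO cells in the propranolol and rapamycin panels and untreated cells in the panel of KO against WT, and open symbols are WT cells or treated cells. Tsc22d3, Per1, Klf9, Mt1 and Mt2 lie above 0 in all 5 propranolol pairs, Sgk1 lies above 0 in all 5 rapamycin pairs and below 0 in all 7 KO pairs.

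Zbtb16, a zinc finger repressor often used as a sensitive readout of receptor activity, was all but silent. It had 3 counts in WT replicate 3 and 2, 2 and 1 in the KO libraries, and 0 counts in the other 12 libraries, where a count of 0 (limit of 3 counts, counting error only) allows up to 0.115 to 0.159 CPM before TMM scaling, depending on depth. No fold change was given for it.

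Across the set, propranolol in KO cells gave the most members separated without overlap in 1 direction. By sign alone, 6 of the 9 were higher in KO+P vs KO and 8 in WT+P vs WT, while 7 were lower in KO+P vs WT+P. Mt1 and Mt2, whose levels followed each other (r = 0.98), are counted apart. In KO+P vs KO, 5 of the 9 tested genes (Tsc22d3, Per1, Klf9, Mt1 and Mt2) had all treated libraries above all untreated ones and 0 had them below, against 9.58 and 9.11% of all tested genes. Of the 9, 4 had an unadjusted p under 0.05, as did 12.6% of all genes, and their median log2 change was 0.61 against -0.006. None of the 9 was called by edgeR without the block (0.00674% of all genes called) or with it (0.142%), or by DESeq2 (1.28%), and DESeq2 with the block called 5 (7.44%), namely Tsc22d3, Klf9, Mt1 and Mt2 as higher and Fkbp5 as lower. In WT+P vs WT the median was 0.83 against 0.004, and Tsc22d3 and Klf9 were higher without overlap and 0 lower, against 10.8 and 10.3% of all genes. Here 3 had an unadjusted p under 0.05 (9.87% of all genes), edgeR called 0 without (0.00674%) and with the block (0.0809%), and DESeq2 called Klf9 without (0.889%) and with the block (1.06%). The summed endothelial markers differed between the same groups, at 6200 to 9660 CPM in WT+P and 6620 to 9910 CPM in KO+P against 10000 to 13000 CPM in WT and 10600 to 11500 CPM in KO, and their part in the propranolol values was not tested.

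Between genotypes the directions were mixed in untreated and in rapamycin-treated cells, and most members were lower in KO cells with propranolol. In KO vs WT the median of the 9 genes was 0.06 against -0.006, with Tsc22d3 and Klf9 higher and Sgk1 lower without overlap, against 6.69 and 6.5% of all genes. None was called by edgeR (0.00674%) or DESeq2 (0.511%), and 4 had an unadjusted p under 0.05 (6.07% of all genes). With the block edgeR called Sgk1 (0.182%) and DESeq2 called Sgk1 and Tsc22d3 (2.78%). In KO+P vs WT+P, Tsc22d3 was higher and Sgk1 lower without overlap (7.8 and 8.77% of all genes), 2 had an unadjusted p under 0.05 (6.19%) and edgeR called 0 (0.0%), whereas edgeR with the block (0.0876%), DESeq2 (0.441%) and DESeq2 with the block (2.05%) each called Sgk1. In KO+R vs WT+R, Klf9 was higher and Mt1 lower without overlap (9.43 and 9.79%), 2 had an unadjusted p under 0.05 (5.72%), edgeR called 0 without (0.0%) and with the block (0.0944%), DESeq2 called 0 (0.588%) and DESeq2 with the block called Sgk1 (2.37%).

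With rapamycin Sgk1 was the only one of the 9 that any of these fits called. In WT+R vs WT, Sgk1 was higher and Nr3c1 lower without overlap (14.0 and 14.7% of all genes), 1 had an unadjusted p under 0.05 (12.6% of all genes) and edgeR called 0, where 1.4% of all genes were called, 0.647% higher and 0.748% lower. The block (4.56%), DESeq2 (3.88%) and DESeq2 with the block (6.72%) each called Sgk1. In KO+R vs KO, Sgk1 was higher and Per1 lower without overlap (10.9 and 13.2%), and Sgk1 was the gene called by edgeR (0.708% of all genes higher, 0.802% lower), with the block (4.98%), by DESeq2 (3.19%) and by DESeq2 with the block (7.72%). In the interactions of each drug with the genotype, edgeR called 0 of the 9 and 0.0% of all genes, and 0 of the 9 had an unadjusted p under 0.05. DESeq2 called 0 of the 9 in both, with 0.0 and 0.00675% of all genes called, and 0.0135 and 0.0472% with the block.

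The wider pathway was read from 7 lists, and genes with the smallest p of a list in a comparison are named. None of the 14 chaperones and co-chaperones of the receptor was called in any comparison, and their median log2 changes lay between -0.06 and 0.13. Their smallest p values belonged to Dnajb1 (0.19 ± 0.14 in KO vs WT, 0.21 ± 0.16 in WT+P vs WT), Bag1 (0.22 ± 0.17 in KO+P vs WT+P), Stip1 (-0.35 ± 0.19 in KO+R vs WT+R), the phosphatase gene Ppp5c (-0.29 ± 0.16 in KO+P vs KO, -0.54 ± 0.18 in WT+R vs WT) and Hsp90ab1, which encodes the constitutive HSP90 (0.36 ± 0.11 in KO+R vs KO). None of the 12 coregulators was called either. Among them the coactivator gene Ncoa3 had 0.71 ± 0.18 in KO vs WT and 0.65 ± 0.2 in KO+R vs WT+R, Ncoa2 had -0.42 ± 0.17 in KO+P vs WT+P, Hdac3 had -0.25 ± 0.11 in WT+P vs WT, and Smarca4 had -0.23 ± 0.09 in KO+P vs KO.

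Of the 8 tested genes for steroid enzymes, efflux and other steroid receptors, 0 were called without the block. Hsd11b1, whose enzyme regenerates active glucocorticoid in cells, was too low to test. The progesterone receptor gene Pgr was lower in KO under each treatment without being called (-1.25 ± 0.63 untreated, -1.5 ± 0.68 with propranolol, -1.68 ± 0.7 with rapamycin). Its level was very low, with group means of 0.898 to 1.19 CPM in WT and 0.271 to 0.409 CPM in KO cells. The mineralocorticoid receptor gene Nr3c2, whose product also binds glucocorticoids, had -1.03 ± 0.33 in WT+P vs WT. H6pd, which supplies cofactor to the enzyme of Hsd11b1, had -0.72 ± 0.24 in KO+P vs KO and Srd5a1 had -0.45 ± 0.28 in KO+R vs KO. Esr1, the estrogen receptor gene, had -0.66 ± 0.24 in WT+R vs WT and was called with the block.

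Of 25 other glucocorticoid-induced genes, 2 were called, both higher in KO+R vs KO, where 1.51% of all genes were called and 0.708% as higher. Edn1, which encodes the vasoconstrictor endothelin-1, rose by 1.93 ± 0.36 on the log2 scale (edgeR adjusted p = 0.0226), and Cebpd, a transcription factor of acute inflammation, rose by 1.24 ± 0.26 (0.0316). The median of the list was 0.23 in KO+R vs KO and 0.46 in WT+R vs WT, against -0.022 and -0.012 for all genes. Edn1 had means of 480 ± 98.5 CPM in WT, 177 ± 74.8 CPM in KO and 674 ± 260 CPM in KO+R (SD, n = 3 each) and 1180 ± 451 CPM in WT+R (n = 2), and its 6 group means stood in the same order as those of Sgk1. With the block Edn1 was also called lower in KO vs WT (-1.5) and in KO+P vs WT+P (-1.66), and in KO+R vs WT+R it had -0.81 ± 0.39.

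With the replicate block, the same list had 5 genes called higher and 1 lower with rapamycin in each genotype, where 4.56% of all genes were called in WT and 4.98% in KO cells. Cebpd, Edn1, Glul and Rgs2 were higher in both, and Ddit4, an inhibitor of mTORC1 that glucocorticoids and stress induce, was lower in both, with means of 48.7 CPM in WT, 21.8 CPM in WT+R, 42.5 CPM in KO and 22.8 CPM in KO+R. The fifth gene was Pdk4 in WT+R vs WT (2.36) and Arrdc2 in KO+R vs KO (0.7), and the interaction with genotype was called for neither. Dusp1, a phosphatase that curbs MAP kinases, had the smallest p of the list with propranolol, 0.83 ± 0.26 in WT and 0.8 ± 0.23 in KO cells, and was not called.

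No clock, zinc or other FKBP gene was called without the block. Among 16 tested clock genes, Nr1d2 had 0.67 ± 0.18 with rapamycin in WT (called with the block) and 0.5 ± 0.17 in KO cells, Ciart had 1.28 ± 0.38 in WT+P vs WT, Nfil3 had 2.85 ± 0.66 in KO+P vs KO (adjusted p = 0.199), Bhlhe40 had 0.35 ± 0.14 and 0.32 ± 0.14 in KO+P vs WT+P and KO+R vs WT+R, and Cry2 had 0.25 ± 0.15 in KO vs WT. Among 6 tested zinc and metallothionein genes, the zinc exporter gene Slc30a1, itself a target of MTF1, had 0.71 ± 0.15, 0.72 ± 0.17 and 0.57 ± 0.17 in KO against WT cells (untreated, propranolol, rapamycin) and 0.38 ± 0.15 in KO+P vs KO. These are opposite in sign to the fitted values of Mt1 and Mt2 in KO against WT. The importer gene Slc39a8 had -0.65 ± 0.27 in WT+P vs WT and Slc39a14 had -0.54 ± 0.23 and -0.47 ± 0.2 with rapamycin in WT and KO cells. Among 13 other FKBP genes, Fkbp14 had -0.66 ± 0.33 and -1.02 ± 0.29 with rapamycin in WT and KO cells and was called in both with the block, Fkbp11 had 2.71 ± 0.88 and 2.77 ± 0.83 with propranolol, where its levels of 11.2 ± 11.5 CPM in WT+P and 11.6 ± 14.1 CPM in KO+P (SD) had a spread above the mean, Fkbp1b had 0.77 ± 0.39 and 0.92 ± 0.4 in KO+P vs WT+P and KO+R vs WT+R, and Fkbp10 had 0.58 ± 0.2 in KO vs WT.

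The genes whose log2 levels followed those of 3 members most closely over the 16 libraries were searched among the 12410 tested genes whose mean reached 1 CPM. For Nr3c1 they were Lonrf3, Btbd9 and Sos1, with Pearson r of 0.86 to 0.87. For Fkbp5 they were Mcm7, Tfdp1 and Blm (0.92 to 0.93), which serve DNA replication, cell cycle transcription and DNA repair. For Tsc22d3 they were Slc35a2, Ehd1 and Klf4 (all 0.94), the last a transcription factor of the response of endothelium to flow. The libraries share treatments and replicate numbers, so these values describe likeness of pattern only.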

How the data were processed

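RNA-seq of 16 libraries was analysed. The deposited files hold, per transcript, an estimated count (NumReads), a TPM value and an effective length in the format of Salmon. The authors' notes to GEO name Salmon 1.5.2, Trim Galore 0.6.7 and HTSeq 0.13.5 with GRCm39, and the paper describes unstranded poly(A) libraries. In the deposited files the estimated counts carry no scaling between samples, and the TPM values that the authors deposited are scaled for length and depth within each. Of 140789 transcripts, 139544 (99.12%) matched GENCODE vM39, and their counts were summed over 54193 genes and rounded. Every column of values had a sample. edgeR 4.0.16 (R 4.3.3) fitted all 6 groups in a quasi-likelihood model with TMM (factors 0.934 to 1.041), filterByExpr (14838 genes) and 10 residual degrees of freedom. The common coefficient of variation was 32.3% (19% once the replicate number entered as a block, with 8 residual degrees of freedom). A call needed an adjusted p (Benjamini-Hochberg, all tested genes) under 0.05 together with a fold above 1.5, and for interactions the adjusted p alone. The code was tested on simulated data.

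Libraries of the same replicate number in the groups compared had correlated deviations from their group means (r = 0.19 to 0.69 over 17 pairs). Over all groups, 36 pairs of the same number had r from 0.03 to 0.69 (median 0.52) and 70 pairs of different number from -0.69 to 0.4 (median -0.23). Deviations from a group mean cancel within the group, so negative values between different numbers are partly built in. In groups of 2 they are exact opposites, so many pairs repeat each other. From the positive values for the same number, the numbers were taken to pair the libraries. For WT replicate 3 these values were low: 0.19 with KO, 0.03 with KO+P and 0.15 with KO+R, against up to 0.17 with other numbers. The pairing comes from the values and not from the labels. The labels call the replicates biological, and the paper says they were independent cultures. For correlations, log2 CPM had a prior count of 2. Windows before transcript starts came from the GRCm39 genome and GENCODE vM39, with the transcript of the highest summed TPM. The windows of 300 and 2000 bases, the start of Sgk1-202, a fit with the block and without WT replicate 1, and DESeq2 with the block were added after the data were seen. All 10 genes were described in every comparison. From the lists, called genes and the gene with the smallest p in each comparison of groups were named, except for a result that is not reported here, and Hsd11b1 was named after its values were seen. The genes, lists and tests were chosen with earlier results of these data known. Alternatives were DESeq2 1.42.0, RLE scaling, no filter, the groups compared alone, the replicate block, an offset from the effective length that the authors deposited, and leaving out each replicate.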

Additional observations from a re-analysis of the deposited data

Results flagged for a closer look

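The small ratios of Nr3c1 with propranolol had opposite signs in the genotypes. In both WT pairs of the same number the treated library was higher (log2 ratios of 0.29 and 0.09), and in all 3 KO pairs it was lower (-0.09, -0.12 and -0.1). The ratio of 0.29 uses the library labelled WT replicate 1. How many of all tested genes split in this way was not counted, so the split alone is not read as a result. The difference between the effects, KO minus WT, was -0.24 ± 0.18 on the log2 scale in the edgeR interaction term (unadjusted p = 0.212, adjusted p = 1.0), so it did not pass the test. Without the library labelled WT replicate 1 it was -0.19.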

How the results depend on the processing

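Calls depended on the settings, and values changed sign more often with a replicate left out than under the other settings. Beside the edgeR counts of called genes among the 9, the replicate block gave 1 in KO vs WT (0 without it), 1 in KO+P vs WT+P (0) and 1 in WT+R vs WT (0), Sgk1 each time, and changed no other call. The block without WT replicate 1 also gave 1 in KO vs WT and 1 in WT+R vs WT. DESeq2 gave 1 in KO+P vs WT+P (Sgk1), 1 in WT+P vs WT (Klf9) and 1 in WT+R vs WT (Sgk1), and no filter on low counts gave 1 in WT+R vs WT. DESeq2 with the replicate block gave 2 in KO vs WT (Tsc22d3 and Sgk1), 1 in KO+P vs WT+P, 1 in KO+R vs WT+R, 1 in WT+P vs WT, 5 in KO+P vs KO (Fkbp5 lower; Tsc22d3, Klf9, Mt1 and Mt2 higher) and 1 in WT+R vs WT. With each replicate left out in turn, the count was 0 throughout in KO+R vs KO (1 with all), and ranged from 0 to 2 in WT+P vs WT, the 2 being Klf9 and Per1 without WT+P replicate 2, where the lone library is assumed to vary like the other groups. Of 81 log2 values only 1 was called in the main fit, Sgk1 in KO+R vs KO, and it did not change sign. Uncalled values changed sign in 42 results with a replicate left out, the largest of them 0.77 in size with all libraries, and in 7 results under the other settings, the largest 0.21.

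Counts over all genes moved further: 1 gene called in KO vs WT against 64 with DESeq2, 27 with the block and 396 with both; 1 in KO+P vs KO against 164, 21 and 933, and 332 without KO+P replicate 3; 1 in WT+P vs WT against 119, 12 and 157, and 546 without WT+P replicate 2; 207 in WT+R vs WT against 542, 677 and 978, 8 in a fit of those groups alone and 25 without WT+R replicate 1; 224 in KO+R vs KO against 473, 739 and 1123, and 51 to 87 with a replicate left out. In KO+P vs WT+P 0 became 59, 13 and 263, and in KO+R vs WT+R 77, 14 and 304. Without a filter on low counts, 5 genes were called in KO vs WT, 2 in KO+P vs WT+P, 7 in KO+R vs WT+R, 36 in WT+P vs WT and 52 in KO+P vs KO. With the effective length offset, 2 were called in KO vs WT and 2 in WT+P vs WT. The causes were not tested. Zbtb16, with 8 counts over all libraries, did not pass the filter, so no difference was tested for it in the main fit.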
